A study of Mus musculus with 8 samples.

Results

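The miR-125, miR-99 and miR-100 families were followed in exosomes from mouse amniotic fluid, through 7 of the 1881 mouse microRNAs (miRNAs) on the array. The members were taken by name from the files: mmu-miR-125a-5p, mmu-miR-125b-5p, mmu-miR-125a-3p, mmu-miR-125b-1-3p, mmu-miR-99a-5p, mmu-miR-99b-5p and mmu-miR-100-5p (mmu, for mouse, is left out below). All 7 were found, and 6 of them were well above background on all 8 arrays and were tested. The seventh, miR-125b-1-3p, was well above background on 3 arrays. It was not tested because these were split between the 2 sample groups, and testing required at least 3 arrays of either group.

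The series holds 8 single-colour Agilent miRNA arrays, 1 per sample, of RNA from exosomes, which are small vesicles shed by cells into body fluids. The LPS group (n = 4) came from mice injected intraperitoneally with lipopolysaccharide, a bacterial cell wall component that triggers inflammation, at 100 μg per kg body weight on day 14 of pregnancy, with preterm birth after about 48 h. The cesarean group (n = 4) came from cesarean sections and was the control. All samples carry the label of day 17 of pregnancy, while day 14 plus 48 h gives an earlier day, so a difference in gestational age cannot be told apart from the treatment. Strain, maternal age, a vehicle injection in the controls, and whether each array stands for a separate animal or a pool are not stated in the labels, so the p-values describe the spread among these samples, which may be technical. Fewer exosomes that carry a miRNA and less of it per exosome cannot be told apart in such bulk samples.

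Mature miRNAs are cut from both arms (5p and 3p) of a hairpin and recognise messenger RNAs mainly through the seed, bases 2 to 8 from the 5′ end. In mammals the miR-99/100, let-7 and miR-125 families lie together in 3 related clusters, in that order, and each cluster is thought to be transcribed as 1 precursor. miR-125 is the mammalian relative of the worm timing miRNA lin-4; it is known for restraining Lin28, an RNA-binding protein that blocks let-7 maturation, and for roles in blood stem cells and in control of tumour necrosis factor in macrophages. The miR-99/100 family is known for targeting the growth kinase mTOR, and let-7 promotes differentiation in many tissues.

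The mature sequences, from RefSeq (GRCm38.p6), are shown with the seed in capitals because the seed divides the members into families. The first group shares the miR-125 seed:
miR-125a-5p: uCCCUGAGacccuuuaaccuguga
miR-125b-5p: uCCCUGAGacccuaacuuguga
The next group shares the miR-99/100 seed:
miR-99a-5p: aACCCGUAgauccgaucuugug
miR-99b-5p: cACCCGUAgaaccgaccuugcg
miR-100-5p: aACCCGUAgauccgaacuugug
The 3p arms of the miR-125 hairpins have seeds that differ from these and from each other:
miR-125a-3p: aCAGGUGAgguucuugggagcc
miR-125b-1-3p: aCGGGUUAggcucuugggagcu

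miR-125a-5p (24 bases) and miR-125b-5p (22 bases) are identical over their first 13 bases and differ towards the 3′ end. Counted from the 5′ end, miR-99a-5p and miR-100-5p differ by U16A alone, and miR-99a-5p and miR-99b-5p by A1C, U11A, U16C and U21C. On the GRCm38.p6 plus strand, the mature members and the let-7 between them span chr9:41531437-41582001 for miR-100, let-7a-2 and miR-125b-1 (50.6 kb, inside the long non-coding RNA gene Mir100hg). The second cluster, of miR-99a, let-7c-1 and miR-125b-2, spans chr16:77598940-77646339 (47.4 kb; no listed gene covers the whole of it). The third, of miR-99b, let-7e and miR-125a, is compact at chr17:17830194-17830876 (0.683 kb, inside the protein-coding gene Spaca6). miR-125b-5p is made with the same sequence on chromosomes 9 and 16, so the array cannot tell its 2 sources apart. let-7a-5p and let-7c-5p also have gene copies outside these clusters.

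The array reads each miRNA with short DNA probes complementary to its 3′ end. The brightest probes of close relatives are shown to make clear how far the array can separate them, with capitals in the first pair for the bases that pair with the seed and in the second pair for the base by which the probes differ:
miR-125a-5p probe: tcacaggttaaagggtCTC
miR-125b-5p probe: tcacaagttagggtCTC
miR-99a-5p probe: cacaagAtcggatctacgg
miR-100-5p probe: cacaagTtcggatctacgg
Counted from the 3′ end without gaps, the miR-125b-5p probe has 5 mismatches to miR-125a-5p over its 17 bases. The miR-125a-5p probe has 7 mismatches to miR-125b-5p over 19 by the same count. These miRNAs differ in length (24 and 22 bases), so this count compares their shared bases out of register. An alignment with a gap would leave fewer mismatches. The counts therefore do not show how well these probes separate the miRNAs, and how much signal they share was not tested. The probes of miR-99a-5p and miR-100-5p each have 1 mismatch to the other miRNA over 19 bases, and how much signal they share was not tested, so their separate values are uncertain.

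Values below are log2 signals per array, scaled to the 75th percentile of 618 probes detected on all arrays; the lowest measurable signal, the floor, is 3.75 on this scale. Overall brightness before scaling (log2 8.20 ± 0.51 in the cesarean and 8.06 ± 0.42 in the LPS group, SD, n = 4; two-sided exact permutation p = 0.743, smallest possible 0.0286) and the number of detected miRNAs (402 to 553 per array; exact p = 0.657) overlapped between the groups. All 8 arrays lie on 1 slide with the LPS arrays in row 1 and the cesarean arrays in row 2, so slide row and group cannot be told apart. Among 470 tested miRNAs, limma with Benjamini-Hochberg adjustment gave 23 with an adjusted p under 0.05 (4.89%; 2.34% lower and 2.55% higher in the LPS group), and without LPS replicate 1 it gave 79, so that array bears on every count here. Of the 6 tested members, 0 passed by limma; 2 had an unadjusted p under 0.05, both lower in the LPS group, against 11.1% of all tested miRNAs lower at that level and 24.9% in either direction. Without LPS replicate 1 the same 2 members, miR-125b-5p and miR-125a-3p, had adjusted limma p-values under 0.05. With any other single array left out, and in every other alternative setting, 0 members passed. The count over all tested miRNAs fell to 3 without cesarean replicate 3. The members' median difference, LPS minus cesarean, was -0.34 with 5 of 6 below 0, and the median of all tested miRNAs was -0.06 with 256 of 470 below 0.

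**Figure D1:**
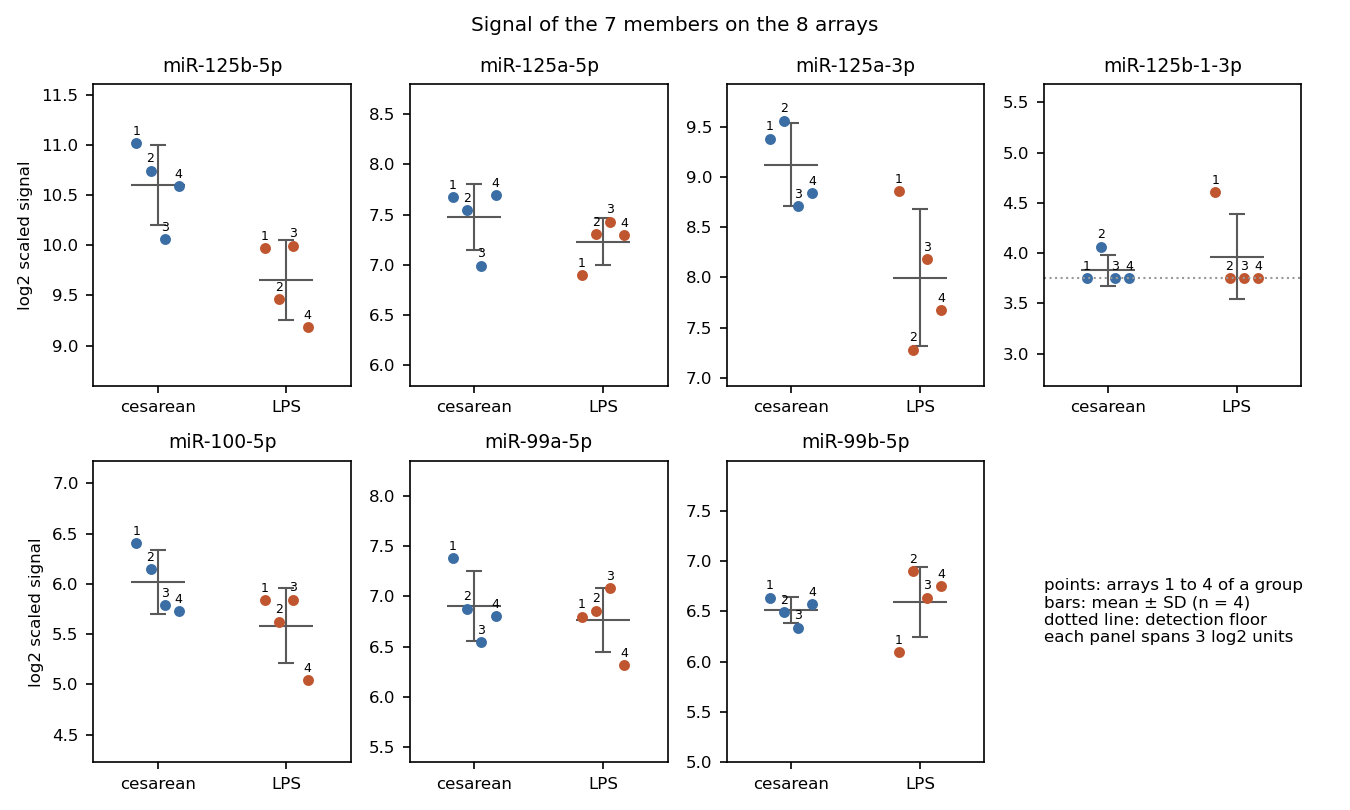
Log2 scaled signal (y axis) of each member on the 4 cesarean arrays (blue) and the 4 LPS arrays (orange), numbered by replicate, with bars for mean ± SD. miR-125b-5p is the member whose groups do not overlap, with cesarean arrays from 10.06 to 11.01 and LPS arrays from 9.19 to 9.99.

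miR-125b-5p, the miR-125 form encoded in both the chromosome 9 and the chromosome 16 cluster, was 1.93-fold lower in the LPS group, a difference that did not pass the adjusted threshold. Its log2 signal was 11.01, 10.74, 10.06 and 10.59 on the cesarean arrays and 9.97, 9.46, 9.99 and 9.19 on the LPS arrays. The groups did not overlap, although cesarean replicate 3 and LPS replicate 3 lay only a little apart; non-overlap with lower LPS values was seen for 7.23% of all tested miRNAs. The means were 10.60 ± 0.40 and 9.65 ± 0.40 (SD, n = 4 each), a difference of -0.95 ± 0.29 (SE; 95% interval -1.59 to -0.31; limma unadjusted p = 0.0081, adjusted p = 0.0769), which ranked 49 among 470 by p. Its 2 probes, of 17 and 16 bases, gave nearly the same difference, -0.95 and -0.92. Without LPS replicate 1 the difference was -1.05 with an adjusted limma p of 0.0410, and the adjusted p was 0.204 in a fit with slide column as blocking factor. All 22 alternative settings placed it lower in the LPS group.

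Lists of miRNAs that mark cell types differed between the groups in part, and their part in the miR-125b-5p difference was not tested. In a list of 4 miRNAs of smooth muscle and mesenchyme (fibroblast-like connective tissue), all 4 were detected on all arrays and 0 passed the threshold, with a summed log2 signal of 10.19 to 11.44 on cesarean and 9.45 to 10.35 on LPS arrays. Its members went both ways, from -1.34 for miR-214-3p to 0.71 for miR-145a-5p. The sums add linear signals, so the brightest miRNAs of a list dominate them. Here miR-199a-3p and miR-214-3p (cesarean means 10.25 and 8.80) outweighed miR-143-3p (6.45) and miR-145a-5p (4.39), which had differences above 0. The brightest of the red blood cell and leukocyte lists below were miR-451a and miR-223-3p (cesarean means 13.35 and 9.09). In the epithelial miR-200 list 3 of 5 were higher at an adjusted p under 0.05 (limma), the summed signal was 9.51 to 9.94 against 10.49 to 11.13, and none of the 5 was undetected on all arrays. In the red blood cell list 1 of 3, miR-144-3p, was higher; no cesarean array had it well above background. The list had a summed signal of 13.08 to 13.94 against 13.78 to 14.92. In the leukocyte list 1 of the 3 tested, miR-142a-3p, was higher, while miR-223-3p differed by 0.09 and miR-342-3p by -0.45 without passing, and the summed signal of 9.45 to 9.82 against 9.33 to 9.85 overlapped. In the neural list miR-9-5p read 7.78 and miR-124-3p 6.47 on cesarean replicate 1, which also had the highest miR-125b-5p signal, and both were at the floor on all LPS arrays. They were well above background on 2 cesarean arrays each and were not tested, and the tested miR-128-3p differed by -0.26. The other arm of the miR-9 hairpin, miR-9-3p, which is not on the list and was singled out after its values were seen, was lower in the LPS group (-3.34; limma adjusted p = 0.0329). The arms disagreed in level: the cesarean mean was 7.54 for miR-9-3p and 4.85 for miR-9-5p, which was at the floor on cesarean replicates 3 and 4. Without cesarean replicate 1 miR-125b-5p still differed by -0.81 (adjusted p = 0.187). The liver miRNA miR-122-5p differed by 2.30 (limma adjusted p = 0.212), with cesarean arrays from 3.75 to 7.02 and LPS arrays from 5.04 to 9.81, and 0 of the 4 striated muscle miRNAs passed (0.20 to 0.35).

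miR-125a-5p, which shares the seed of miR-125b-5p and comes from the compact chromosome 17 cluster, differed little between the groups. Its log2 signal was 7.68, 7.55, 6.99 and 7.69 on the cesarean arrays and 6.90, 7.31, 7.43 and 7.30 on the LPS arrays. The groups overlapped, with the lowest values on cesarean replicate 3 and LPS replicate 1. The difference was -0.24 ± 0.24 (SE; 95% interval -0.79 to 0.30; limma adjusted p = 0.576), so that the interval reaches a decrease nearly as large as that of miR-125b-5p. Single arrays moved it from -0.41 (without cesarean replicate 3) to -0.13 (without LPS replicate 1). Set against its own cesarean mean on each LPS array, miR-125b-5p lay below miR-125a-5p by between 0.05 and 1.23 log2 units (mean difference -0.70 ± 0.52, SD, n = 4), and the values overlapped with those of the cesarean arrays because of LPS replicate 1. This difference between the relatives is a description; it was given no test.

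miR-125a-3p, cut from the other arm of the miR-125a hairpin, was 2.18-fold lower in the LPS group on its brightest probe, but its other probes gave a much smaller difference. On the brightest probe the cesarean arrays read 9.38, 9.56, 8.71 and 8.84 and the LPS arrays 8.86, 7.28, 8.18 and 7.68. LPS replicate 1 lay within the cesarean range and the other LPS arrays below it. The means were 9.12 ± 0.41 and 7.999 ± 0.68 (SD, n = 4 each), a difference of -1.12 ± 0.36 (SE; 95% interval -1.92 to -0.32; limma unadjusted p = 0.0107, adjusted p = 0.0839), and without LPS replicate 1 it was -1.41 with an adjusted p of 0.0224.

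The 4 probes of miR-125a-3p start at the same 3′ end of the miRNA and differ by single added bases; they are shown, with the bases beyond the shortest probe in capitals, because the result turns on which of them is read:
probe of 13 bases: ggctcccaagaac
probe of 14 bases: ggctcccaagaacC
probe of 15 bases: ggctcccaagaacCT
probe of 16 bases, the brightest: ggctcccaagaacCTC
The differences, LPS minus cesarean, were -0.33, -0.24 and -0.33 for the probes of 13, 14 and 15 bases and -1.12 for the probe of 16 bases. In the authors' deposited table the difference was -0.38, and the scanner software's total over all probes gave -0.75. The shorter probes disagreed with the longest on single arrays too. On cesarean replicate 1 the 14-base probe read 6.08, the lowest of the cesarean arrays, and on LPS replicate 1 it read 7.96, the highest of all 8, while the 16-base probe read 9.38 and 8.86 there. After centring each probe on its mean, the mean absolute difference over the 8 arrays between the brightest probe and the other 3 was 0.47 to 0.51, against 0.12 and 0.23 between the next brightest probe and the other 2. The brightest probe was closer to the probes of miR-125b-5p, at 0.28, and miR-100-5p, at 0.41, than to its own 3 companions. All 4 probes were well above background on all 8 arrays.

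**Figure D2:**
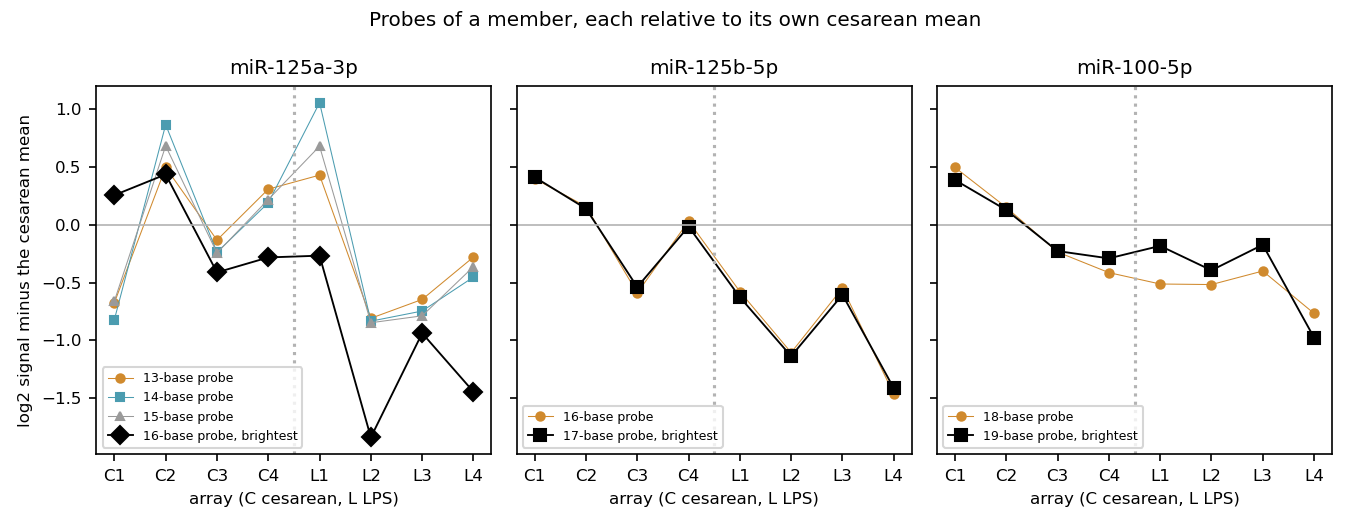
Log2 signal of every probe of miR-125a-3p, miR-125b-5p and miR-100-5p minus that probe's cesarean mean (y axis) on each array (x axis); thin lines join points of 1 probe and carry no order. The 16-base probe of miR-125a-3p departs from the 3 shorter ones (-1.12 against -0.24 to -0.33 on average), while the 2 probes of miR-125b-5p overlie each other.

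miR-125b-1-3p, the arm opposite miR-125b-5p in the chromosome 9 hairpin, was near the limit of detection. It was well above background on 1 cesarean and 2 LPS arrays, and only through 1 of its 4 probes, that of 14 bases. Its signal was 4.06 on cesarean replicate 2 and 4.60 on LPS replicate 1, and was at the floor of 3.75 on the other 6 arrays, 1 of which was still marked as above background before scaling. The corresponding arm of the chromosome 16 hairpin, miR-125b-2-3p, was not well above background on any array. Neither arm therefore gave a level from which the chromosome 9 and 16 sources of miR-125b-5p could be compared.

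None of the 3 members of the miR-99/100 family passed the adjusted threshold, and all 3 overlapped between the groups. miR-100-5p, the partner of miR-125b-1 on chromosome 9, read 6.41, 6.15, 5.79 and 5.73 on the cesarean arrays and 5.83, 5.62, 5.84 and 5.04 on the LPS arrays. Its difference was -0.43 ± 0.27 (SE; 95% interval -1.03 to 0.17; limma adjusted p = 0.343), and the interval reaches past the -0.95 of miR-125b-5p. The lowest value was on LPS replicate 4. Without that array the difference was -0.25, so that 1 array carries much of it. The 2 probes of miR-100-5p gave -0.43 and -0.55. The second of them, of 18 bases, was well above background on 7 arrays. It read 3.75 to 4.12 on the LPS arrays, at or near the floor of 3.75, which limits its difference.

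miR-99a-5p, which differs from miR-100-5p by a single base and lies with miR-125b-2 on chromosome 16, read 7.38, 6.88, 6.54 and 6.80 on the cesarean arrays and 6.80, 6.86, 7.08 and 6.32 on the LPS arrays. The highest and the lowest value came from opposite groups, but the remaining arrays were interleaved. The difference was -0.14 ± 0.26 (SE; 95% interval -0.72 to 0.45; limma adjusted p = 0.793), and it turned to 0.021 without cesarean replicate 1 and to 0.011 without LPS replicate 4.

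miR-99b-5p, from the chromosome 17 cluster, had the narrowest cesarean range of the tested members, 6.64, 6.49, 6.34 and 6.58, against 6.10, 6.90, 6.64 and 6.75 in the LPS group. LPS replicate 1 was the lowest array and the other LPS arrays were level with or above the cesarean ones. Its difference was 0.08 ± 0.24 (SE; 95% interval -0.44 to 0.61; limma adjusted p = 0.874); it turned to -0.063 without scaling between arrays, to -0.044 with scaling to the spike-in probes and to -0.017 without LPS replicate 2.

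**Figure D3:**
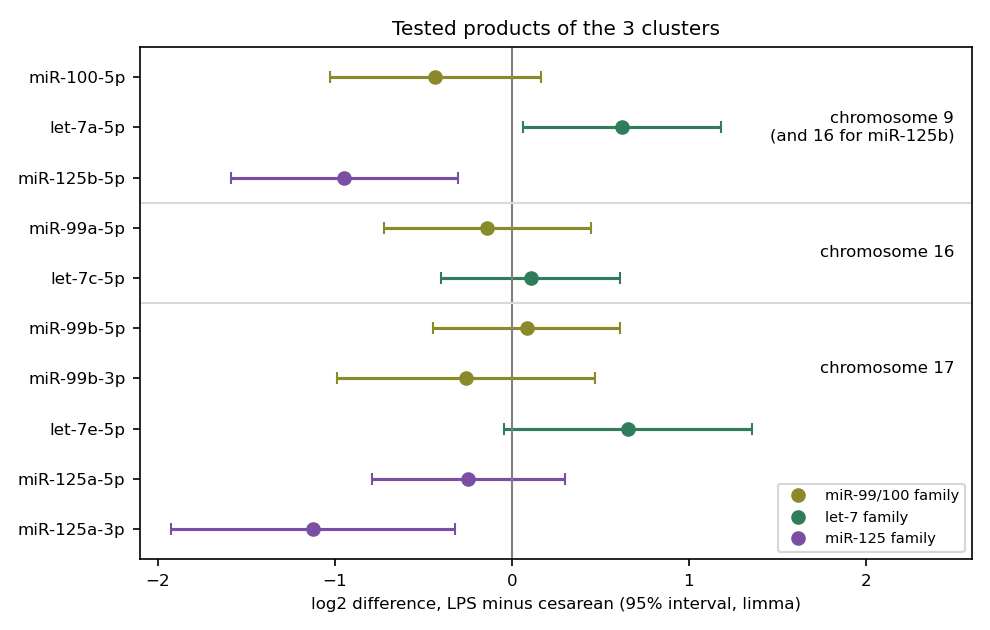
Log2 difference, LPS minus cesarean, with its 95% interval from limma (x axis) for each tested product of the 3 clusters (y axis), coloured by family; miR-125b-5p is drawn once, in the chromosome 9 block, although chromosome 16 encodes it as well. The intervals of miR-125b-5p and miR-125a-3p lie below 0, that of let-7a-5p above 0, and the others include 0.

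The let-7 miRNAs that lie between the members in each cluster had differences above 0, as did miR-99b-5p, while the remaining tested members were below 0. let-7a-5p, from chromosome 9 and from copies elsewhere, read 9.95, 10.01, 9.80 and 9.77 on the cesarean arrays and 10.28, 11.02, 10.66 and 10.08 on the LPS arrays. All LPS arrays lay above all cesarean arrays, as for 9.79% of tested miRNAs, and the difference of 0.62 ± 0.25 (SE) had an adjusted limma p of 0.164. let-7e-5p, from chromosome 17, differed by 0.66 ± 0.31 (SE; adjusted p = 0.223) and let-7c-5p, from chromosome 16, by 0.11 ± 0.23 (SE; adjusted p = 0.822, limma). The let-7c-5p difference turned to -0.039 without scaling and to -0.021 with spike-in scaling. The 6 let-7 miRNAs outside these clusters had a median difference of 0.73, from 0.09 to 1.30, and 1 of them, let-7d-5p, was higher at an adjusted limma p under 0.05. Of the remaining arms of the clusters, miR-99b-3p differed by -0.26 ± 0.33 (SE; adjusted p = 0.673, limma). Without LPS replicate 1 this was -0.0048, without cesarean replicate 3 it was -0.10, and without cesarean replicate 2 and LPS replicate 2 in turn it was -0.41 and -0.46. The 3p arms of let-7a-2, let-7c-1, let-7e, miR-99a and miR-100 were, with miR-125b-2-3p, not well above background on any array. The 3p arm of let-7a-1, a hairpin on chromosome 13 outside these clusters, was not either.

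Partners from 1 cluster were also compared array by array, since the difference between 2 miRNAs on the same array does not depend on scaling. Relative to their cesarean means, miR-125b-5p lay below miR-100-5p by 0.44, 0.74, 0.43 and 0.44 log2 units on LPS replicates 1 to 4 (mean -0.52 ± 0.15, SD). The cesarean arrays ranged from -0.31 to 0.28 around their own mean and did not overlap with the LPS arrays. miR-125b-5p lay below miR-99a-5p by a mean of -0.81 ± 0.23 (SD, n = 4; LPS arrays -1.09 to -0.52, cesarean arrays -0.18 to 0.16), also without overlap. Both pairs use the same miR-125b-5p values, which the array cannot assign to either cluster. The probes of miR-100-5p and miR-99a-5p differ by 1 base, so these pairs are not separate observations. On chromosome 17 the corresponding pair, miR-125a-5p against miR-99b-5p, had a mean of -0.33 ± 0.19 and the groups overlapped. How often pairs among all tested miRNAs lack overlap was not counted, and miR-125b-5p already lacked it on its own.

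let-7 lay above miR-125 of the same cluster on all 4 LPS arrays in each of the 3 clusters, relative to the cesarean means. The mean was 1.57 ± 0.53 for let-7a-5p against miR-125b-5p, 1.05 ± 0.20 for let-7c-5p against miR-125b-5p, and 0.90 ± 0.40 for let-7e-5p against miR-125a-5p (SD, n = 4). The lowest LPS value of each pair, 1.02, 0.77 and 0.61, exceeded its highest cesarean value of 0.46, 0.38 and 0.39. These pairs share members and arrays and were chosen with the differences known, so they carry no p. How many pairs among all tested miRNAs separate in this way was not counted, and miR-125b-5p and let-7a-5p each did so alone. The 6 let-7 miRNAs outside these clusters also had differences above 0 (median 0.73, from 0.09 to 1.30). Their pairs with miR-125 were not compared, so the separation is not shown to be particular to partners of 1 cluster.

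**Figure D4:**
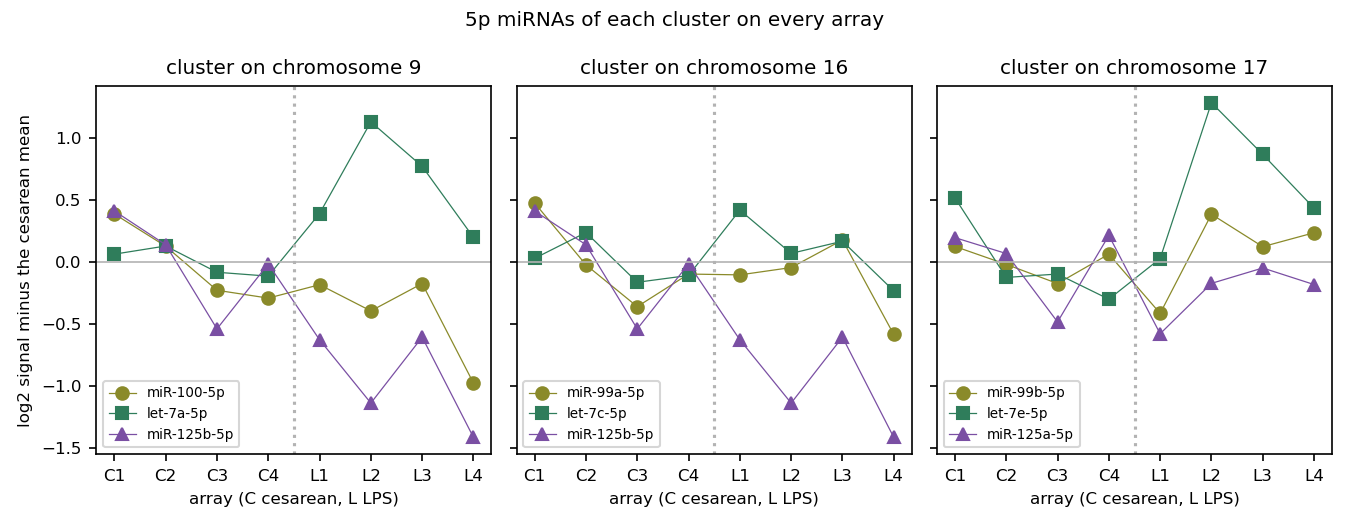
Log2 signal minus the cesarean mean (y axis) of the 5p miRNAs of each cluster on every array (x axis: C cesarean, L LPS); thin lines join points of 1 miRNA and carry no order, and miR-125b-5p appears in both clusters that encode it. On LPS arrays let-7 (green) lies above miR-125 (purple) in each panel, and miR-99 or miR-100 (olive) lies between them or close to let-7.

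Within the miR-99/100 family, miR-100-5p lay below miR-99a-5p by a mean of -0.29 ± 0.14 on the LPS arrays, and miR-99b-5p above it by 0.22 ± 0.50 (SD, n = 4); both overlapped with the cesarean arrays. The miR-10 miRNAs, which resemble the miR-99/100 family with a shifted seed, differed by 0.39 ± 0.31 for miR-10a-5p (SE; limma adjusted p = 0.466) and by 0.00 ± 0.25 for miR-10b-5p (adjusted p = 0.998). All 5 miRNAs of these families had groups that overlapped.

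In the RefSeq table, which held sequences for 1608 of the 1881 miRNAs, 3 further miRNAs on the array carry the miR-125 seed and none carries the miR-99/100 seed or the seed of either 3p arm. Those detected are shown to make the shared seed, in capitals, and the unlike 3′ ends visible:
miR-351-5p: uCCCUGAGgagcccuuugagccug
miR-6394: uCCCUGAGuggggccaggucu
miR-6394 read 5.61, 5.56, 5.57 and 5.81 on the cesarean arrays and 4.55, 4.85, 4.59 and 5.53 on the LPS arrays. The groups did not overlap, as for 7.23% of all tested miRNAs with lower LPS values, and LPS replicate 4 lay close to the cesarean arrays. The difference was -0.76 ± 0.26 (SE, limma adjusted p = 0.104). Without LPS replicate 4 it was -0.98 with an adjusted limma p of 0.0314, with normexp background correction it was -0.25 (adjusted p = 0.5999), and with slide column as blocking factor the adjusted p was 0.261. miR-351-5p was well above background on 0 of 4 cesarean and 3 of 4 LPS arrays, through 1 of its 4 probes, and so was tested only through the LPS group. It was at the floor of 3.75 on all cesarean arrays and read 3.75, 4.87, 3.75 and 4.18 on the LPS arrays, which gives no firm difference between the groups: the fitted 0.39 (95% interval -0.23 to 1.003; limma adjusted p = 0.410) was 0.14 without LPS replicate 2, 0.074 in the authors' deposited table and 0.030 with a floor 2 times as high. miR-6367 was not well above background on any array. Among the 4 tested miRNAs with the miR-125 seed, 0 passed the adjusted threshold by limma, and 2, miR-125b-5p and miR-6394, had an unadjusted p under 0.05. Both were lower in the LPS group, against 11.1% of all tested miRNAs lower at that level and 24.9% in either direction.

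The tested miRNAs with the pattern most like each member over the 8 arrays, by the mean absolute difference between values centred on each miRNA's own mean, were named as a description. For miR-125b-5p they were miR-199a-3p (0.18), miR-218-5p (0.19) and miR-130b-3p (0.21), against a median of 0.63 over all tested miRNAs. For miR-125a-3p, read by its 16-base probe alone, from which its other 3 probes depart, they were miR-218-5p (0.16), miR-130b-3p (0.21) and miR-199a-5p (0.25). miR-125b-5p and this 1 probe of miR-125a-3p thus had miR-218-5p and miR-130b-3p in common; miR-218-5p differed by -1.24 and was lower in the LPS group (limma adjusted p = 0.0465), and miR-130b-3p differed by -1.13 (adjusted p = 0.0746). miR-199a-3p, a miRNA of mesenchymal cells and on the list of such markers above, differed by -0.98 (limma adjusted p = 0.0903). On that list miR-214-3p was also lower (-1.34), while miR-143-3p (0.62) and miR-145a-5p (0.71) went the other way, all without passing. The list as a whole therefore did not share the direction of miR-125b-5p. The nearest to miR-125a-5p were miR-134-5p (0.17), miR-361-5p (0.19) and miR-342-3p (0.19), to miR-99a-5p miR-103-3p (0.18), miR-361-5p (0.19) and miR-331-3p (0.20), to miR-99b-5p miR-30c-5p (0.12), miR-7031-5p (0.15) and miR-345-5p (0.15), and to miR-100-5p miR-324-3p (0.19), miR-195a-5p (0.21) and miR-324-5p (0.22). None of these 11 miRNAs passed the adjusted threshold, against 4.89% of all tested miRNAs that did. The distance takes in the difference between the groups, so the neighbours of every member resemble it in that difference by the way they were chosen.

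**Figure D5:**
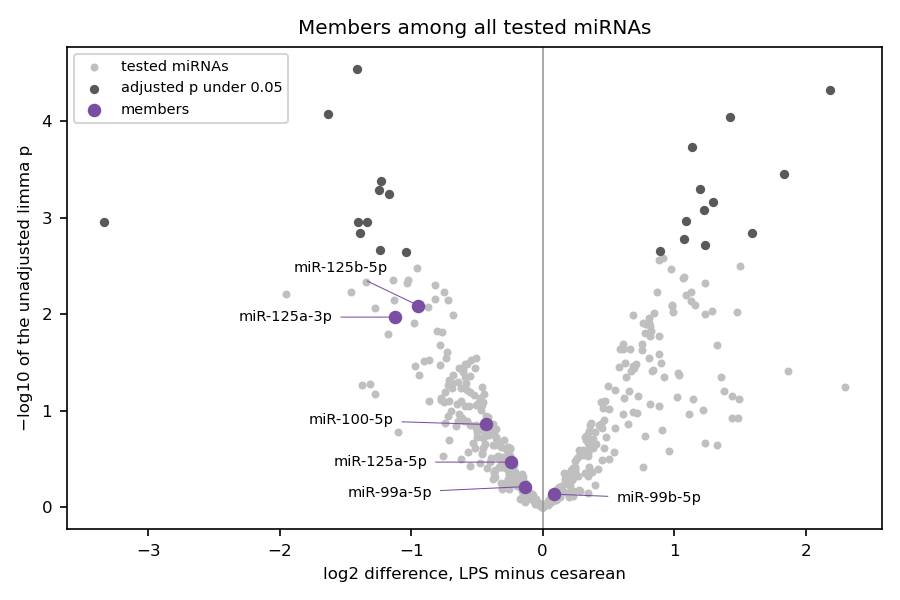
Log2 difference, LPS minus cesarean (x axis), against −log10 of the unadjusted limma p (y axis) for the 470 tested miRNAs, with the 23 past the adjusted threshold in dark grey and the 6 tested members in purple. miR-125b-5p and miR-125a-3p sit below the called miRNAs on the lower side, and the other 4 members lie near the base of the plot.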

How the data were processed

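The spot intensity values were deposited as scanner output. The file headers name Feature Extraction 10.7.1.1 (Agilent), whose values here are background-subtracted linear signals without scaling between arrays; the submitters' processing notes name version 9.1. The labels describe fluid concentration, size-exclusion chromatography and Cy3 labelling of cRNA from 0.5 μg RNA, with no separate protocol for miRNAs. The deposited matrix has log2 values, normalized by the authors with an unstated method (column medians 2.14 to 2.15); over 336 miRNAs each of its 8 columns correlated best with its own array (r 0.958 to 0.964), and it served as an alternative.

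Control spots and outlier spots (2.99% to 3.48%) were left out; 0 miRNA spots were saturated. Of the 18 member probes, the 13 well above background on all arrays had 5 to 15 kept spots each, with a median spot CV of 4.59% to 15.3%. Probe means were divided by each array's 75th percentile over 618 probes detected on all arrays, raised to a floor of 13.5 and put on the log2 scale, and the brightest probe stood for each miRNA. Tested were 470 miRNAs well above background on at least 3 of 4 arrays of either group, with limma 3.58.1 in R 4.3.3 (lmFit, eBayes, two-sided, Benjamini-Hochberg, threshold 0.05) over all of them. The procedure was checked on simulated data. Array totals were compared by exact permutation over 70 allocations. All members, cluster partners, seed sharers (bases 2 to 8), miR-10 relatives and the 3 nearest patterns per member were named by rule. Members and lists were chosen with earlier results of these data known. Alternatives covered scaling, background, probe summary, floor, filter, variance model, slide column and each array left out, and 2 on the probe chosen for a miRNA were added after seeing the data. The labels pair no samples. Tables and plots used data.table (1.17.8), Python 3.11.15, numpy 2.4.6, pandas 2.3.3 and matplotlib 3.10.9. No genome of the files' build (mm9) was used here; positions are RefSeq's.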

Additional observations from a re-analysis of the deposited data

Results flagged for a closer look

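Among 34 groups of 4 arrays tested for a sample far from the others, 1 stood out, where chance alone flags about 1 in 20: miR-10b-5p on LPS replicate 4 had a log2 signal of 8.04, while the other LPS arrays lay between 8.40 and 8.47.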

How the results depend on the processing

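The count of called miRNAs, 23 of 470, was 13 with the percentile over all probes, 1 without scaling, 1 with spike-in scaling, 9 with normexp, 6 with the scanner's total signal, 15 over miRNAs detected on all 8 arrays, 2 without a filter and 1 with slide column as blocking factor; leaving out single arrays gave 3 (without cesarean replicate 3) to 79 (without LPS replicate 1), with 5, 4 and 9 without cesarean replicates 1, 2 and 4 and 4 and 7 without LPS replicates 2 and 3. The count of members was 0 and ranged from 0 to 2 when single arrays were left out, with 2 without LPS replicate 1. The cause of these shifts was not tested.

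miR-125b-5p differed by -1.13 to -0.79 over 22 settings (adjusted limma p 0.0410 to 0.424) and miR-125a-3p by -1.41 to -0.24 (0.0224 to 0.819), the smallest with its next brightest probe. Signs turned for let-7c-5p without scaling (-0.039) and with spike-in scaling (-0.021), for miR-99b-5p under the same 2 settings (-0.063 and -0.044) and without LPS replicate 2 (-0.017; single arrays left out, -0.017 to 0.25), and for miR-99a-5p without cesarean replicate 1 (0.021) or LPS replicate 4 (0.011; -0.26 to 0.021). miR-10b-5p, at 0.00, turned without scaling (-0.15), with spike-in scaling (-0.13) and with normexp (-0.0070), and ranged from -0.091 to 0.19 with single arrays left out. miR-100-5p turned to 0.69 with the scanner's total signal. The median of all tested miRNAs was -0.06, and -0.20 without scaling.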

Other observations

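The scanner software's total signal for miR-100-5p was 244 on LPS replicate 4 and 16.3 to 54.4 on the other 7 arrays, while the software's own totals for its 2 probes on LPS replicate 4 were 1.85 and 7.10 and its scaled spot signal was the lowest of all arrays there. Across the 8 arrays, 907 of 4397 detected totals (20.6%) exceeded 2 times the sum of their probes' totals. For miR-125b-1-3p this held on 5 arrays, with totals of 43.3 to 139, and for the other 5 members on none.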
